A study of Mus musculus with 4 samples.

Results

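Hsd11b1-positive resident fibroblasts are cardiac mesenchymal cells that carry RNA for Hsd11b1, the enzyme that turns inactive 11-keto glucocorticoids into active ones. Cells with at least 500 genes, at least 1000 unique molecular identifiers (UMIs, each standing for 1 captured RNA molecule) and at most 10% mitochondrial UMIs were kept. A kept cell was a member if it had at least 2 Hsd11b1 UMIs and at least 3 per 10,000 UMIs. It also had to have at most 1 Inmt UMI, fewer than 20 Pi16 UMIs per 10,000, at most 1 Cthrc1 UMI, no Wif1 UMI and fewer than 2 of Rgs5, Kcnj8, Vtn and Myh11 detected. Of 30454 kept cells, 17083 passed the conditions other than Hsd11b1 and 7178 were members, 23.6% of the kept cells. The 5791 cells that passed the other conditions with 0 Hsd11b1 UMIs, called negative cells here, served for comparison. A further 2919 cells had 1 Hsd11b1 UMI and 1195 had at least 2 but fell under the rate, and these belonged to neither class. The Hsd11b1 counts and the other genes of the rule chose the members, so their values are given as a description. The members were selected on these counts in the same cells that are described.

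The study profiled 4 droplet libraries of fluorescent heart cells from C57BL/6 mice. Hic1 CreERT2 tdTomato+ cells were taken from undamaged hearts and, as a separate library, 7 days after ligation of the left anterior descending (LAD) coronary artery, with 3 hearts pooled in each. Hic1 Citrine+ cells came from 3 undamaged hearts and PDGFRa H2BEGFP+ cells from 4 hearts, 2 undamaged and 2 taken 7 days after LAD ligation, each heart marked by a hashtag antibody. CreERT2 is a Cre recombinase that acts only with tamoxifen, so tdTomato marks cells that expressed Hic1 at induction and their descendants. Citrine and H2BEGFP report the activity of Hic1 and Pdgfra without such an induction. The strain of the last library was B6.129S4-Pdgfratm11(EGFP)Sor/J, and ages and sexes were not given in the sources used here. Which PDGFRa hashtags mark the ligated hearts is likewise not given, so those 4 hearts are shown heart by heart and never as undamaged and ligated groups.

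Hsd11b1 sits in the endoplasmic reticulum, where H6pd supplies its NADPH, and the cortisol or corticosterone it makes binds the glucocorticoid receptor Nr3c1, which enters the nucleus and switches on genes such as Fkbp5, Tsc22d3, Per1 and Zbtb16. The enzyme is widespread in fibroblasts and adipose stroma, where it sets the hormone level inside the cell apart from that in the blood. The other markers used for these cells are the chemokine Cxcl14, the co-receptor for glial cell line-derived neurotrophic factor (GDNF) Gfra1, the bombesin-like peptide neuromedin B (Nmb), the glutathione transferase Gsta3 and the matricellular protein Smoc2.

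The 6 marker genes lie on 5 chromosomes in the GENCODE M21 annotation of GRCm38, and all are protein-coding. Hsd11b1 is at chr1:193221634-193264075 on the minus strand and Gsta3 at chr1:21240589-21265661 on the plus strand. Cxcl14 is at chr13:56288643-56296551, Gfra1 at chr19:58235604-58455909 and Nmb at chr7:80902227-80905076, all on the minus strand, and Smoc2 is at chr17:14279506-14404790 on the plus strand. Promoter windows of 300 bases from RefSeq (GRCm38.p6) matched 5 of the 6 by symbol and were searched on both strands for the palindromic glucocorticoid response element, for its arm AGAACA, which a full element contains in each orientation, and for the palindrome TTGCGCAA bound by C/EBP factors. Full elements and C/EBP palindromes were in none of the 5 windows, against 0.00913% and 0.183% of all 32851 windows. The arm was in the Cxcl14 window at base 58 and in the Nmb window at base 22, and 19.0% of all windows hold it. The windows of Hsd11b1, whose RNA defines the cells, and of the pair with an arm are printed with the arm in capitals, as TGTTCT because it lies on the opposite strand. A match of letters is a description of the window and not evidence of binding. They lie at chr1:193242311-193242610, chr13:56296502-56296801 and chr7:80905013-80905312, each read 5′ to 3′ along the minus strand.
Hsd11b1: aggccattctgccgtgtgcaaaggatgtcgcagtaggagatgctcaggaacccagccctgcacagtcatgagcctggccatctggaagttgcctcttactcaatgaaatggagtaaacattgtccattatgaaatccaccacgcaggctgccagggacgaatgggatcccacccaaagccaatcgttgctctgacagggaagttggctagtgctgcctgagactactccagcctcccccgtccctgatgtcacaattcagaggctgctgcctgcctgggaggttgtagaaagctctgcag
Cxcl14: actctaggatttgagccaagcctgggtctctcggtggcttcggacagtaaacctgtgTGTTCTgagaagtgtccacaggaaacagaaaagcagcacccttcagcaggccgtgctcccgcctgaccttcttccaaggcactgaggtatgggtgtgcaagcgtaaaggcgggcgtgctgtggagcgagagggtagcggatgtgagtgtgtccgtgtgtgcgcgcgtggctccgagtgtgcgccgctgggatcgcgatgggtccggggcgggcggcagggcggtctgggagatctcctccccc
Nmb: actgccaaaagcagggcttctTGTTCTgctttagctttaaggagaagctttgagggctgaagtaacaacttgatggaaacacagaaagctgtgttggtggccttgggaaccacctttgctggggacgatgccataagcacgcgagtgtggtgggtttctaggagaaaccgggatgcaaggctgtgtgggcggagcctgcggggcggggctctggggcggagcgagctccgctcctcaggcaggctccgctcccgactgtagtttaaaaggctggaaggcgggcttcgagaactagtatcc

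The libraries differed in depth. Kept cells had a median of 3453 UMIs in the undamaged tdTomato library, 3668 in the ligated tdTomato library, 8038.5 in the citrine library and 7729 in the PDGFRa library. Barcodes shared between libraries were few, at most 35 between any pair, of which at most 2 were members in both. The tdTomato pair shared 8 kept barcodes and the citrine and PDGFRa pair 35, whereas each tdTomato library shared 0 to 2 with each of the others. A hashtag was assigned to a cell when it held at least 80% of at least 10 hashtag UMIs, which left 49.5% of citrine and 42.0% of PDGFRa cells without a heart. Those cells stayed in the library totals and out of values by heart.

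Hsd11b1-positive cells made up between 31.2% and 46.2% of the cells that passed the other conditions. The share was 31.2% (95% exact Clopper-Pearson interval 29.0 to 33.5, 510 of 1634 cells) in the undamaged tdTomato library and 33.9% (31.9 to 35.9, 737 of 2174) in the ligated one. It was 43.2% (42.0 to 44.4, 2866 of 6639) in the citrine library and 46.2% (45.0 to 47.4, 3065 of 6636) in the PDGFRa library. The intervals of the tdTomato pair overlapped, and both lay below those of the deeper libraries. This order did not hold among cells of 1 to 2 times the median depth of their library, where the shares were 37.4%, 40.8%, 46.5% and 33.2% and the PDGFRa library was the lowest. The rule counts UMIs, and both deeper libraries had the higher shares. With every cell thinned to 2000 UMIs (mean of 20 draws, with shallower cells left out), the shares came to 22.1% (19.98 to 24.2), 21.2% (19.6 to 23.0), 21.4% (20.4 to 22.4) and 21.1% (20.3 to 22.0) in the same order, and all 4 intervals overlapped. Thinning left out 419, 497, 229 and 136 cells and also let more cells pass the other conditions. These intervals cover counting error only, and no test between libraries was made: each tdTomato pool is a single sample, and the PDGFRa hearts mix undamaged and ligated ones without a label. Summed over passing cells, the Hsd11b1 level was 426, 429, 394 and 383 UMIs per 1000000 (CPM) in the same order.

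**Figure D1:**
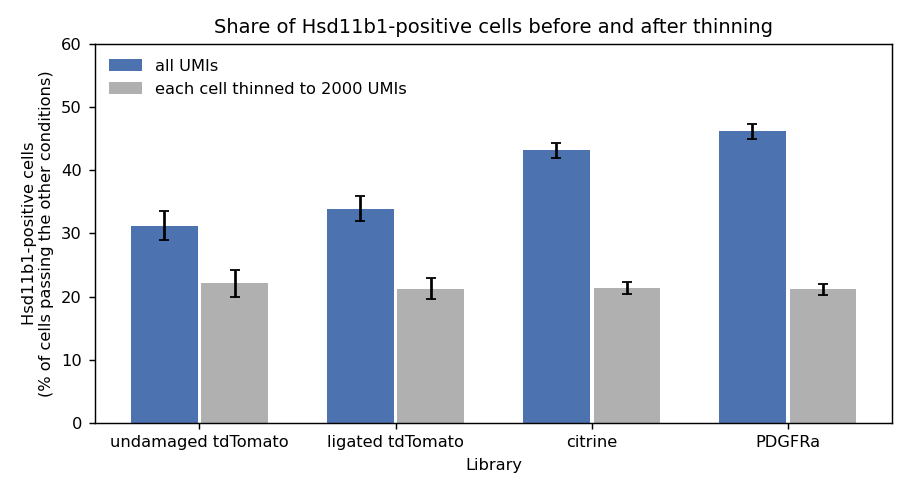
Bars give Hsd11b1-positive cells as a percentage of the cells passing the other conditions of the rule (y axis) in each library (x axis), with all UMIs (blue) and with each cell thinned to 2000 UMIs (grey); error bars are exact 95% binomial intervals. The blue bars run from 31.2% to 46.2%, and the grey bars lie between 21.1% and 22.1%.

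Among the hashed hearts, the share was 36.4%, 48.2% and 45.3% in citrine hearts 1 to 3 and 39.4%, 41.9%, 50% and 50.2% in PDGFRa hearts 1 to 4. Citrine heart 1 and PDGFRa hearts 1 and 2 were thus the lowest of the 7. Postn, the matricellular gene of activated fibroblasts, stood at 3625 and 3854 CPM over all kept cells of PDGFRa hearts 1 and 2, against 202 and 284 CPM in hearts 3 and 4 and 198 to 305 CPM in the citrine hearts. Hsd11b1 over passing cells was 317 and 307 CPM in PDGFRa hearts 1 and 2 and 478 and 468 CPM in hearts 3 and 4. The part of injury in this spread cannot be told apart here, since the hashtags carry no condition.

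Members held little Hsd11b1 RNA each. The median member had 3 Hsd11b1 UMIs in each tdTomato library and 5 in the citrine and PDGFRa libraries, at rates of 9.46, 8.84, 6.91 and 7.15 per 10,000 UMIs in the order above. Cells just inside the minimum, with exactly 2 UMIs, were 31.6%, 32.8%, 11.5% and 12.7% of members. Cells just outside it, with 1 UMI, numbered 273, 461, 1081 and 1104, and the rate minimum set aside 7, 10, 687 and 491 more with at least 2. Free RNA in the droplets can give UMIs to cells that do not express a gene, and its part in these counts was not tested. Cells left out for Cthrc1, the marker of activated fibroblasts, had a Hsd11b1 UMI in 16.7% of 2834 cells of the PDGFRa library, and 1.98% passed the Hsd11b1 minimum, at a median depth of 16463.5 UMIs. In the same library 46.2% of the passing cells met the minimum at a median of 6974 UMIs.

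The fibroblast label held against its markers. At least 5 of 10 general fibroblast genes (Pdgfra, Col1a1, Col1a2, Col3a1, Dcn, Lum, Tcf21, Pdgfrl, Gsn and Dpt) were detected in 100%, 99.7%, 100% and 99.9% of members, with a median of 8 to 9. Most markers of other cell types were scarce. Over 9 sums of member cells (1 for each of the 2 pools and the 7 hashed hearts), the 7 endothelial genes together held 17.3 to 46.6 CPM, with Cdh5, Emcn and Tie1 at 0. The 9 macrophage and monocyte genes held 2.31 to 7.64 CPM, with Adgre1 and Fcgr1 at 0, and the 5 epicardial genes held 0 to 5.94 CPM, with Upk1b at 0. Smooth muscle genes, 1 of which (Myh11) the rule used, held 18.4 to 106 CPM in members and 86.4 to 424 CPM in negative cells. The 8 pericyte genes, 3 of which (Rgs5, Kcnj8 and Vtn) the rule used, were the exception at 158 to 217 CPM in members and 80.3 to 361 CPM in negative cells. They were higher in members in 7 of 9 units, and Pdgfrb, which fibroblasts also express, held 103 CPM of the total. Their part in the differences below was not tested.

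The negative cells were fibroblasts too, since 96.2% to 99.8% had at least 5 of the 10 genes, but of a different make-up. The 6 genes of activated fibroblasts summed to 417 to 2905 CPM in them and 68.2 to 358 CPM in members. The 6 genes of Sca1-high fibroblasts summed to 943 to 2347 CPM in negative cells and 846 to 1341 CPM in members. Both lists were lower in members in 9 of 9 hearts and pools, and each holds a gene of the rule (Cthrc1 and Pi16). The sum of the 4 genes of Inmt fibroblasts (Inmt, which the rule used, Apoe, Igfbp3 and Ifi205) went the other way. It was 4466 to 7963 CPM in members and 2756 to 7866 CPM in negative cells, and higher in members in 9 of 9 units. Apoe made up most of it, at 4724 CPM over all members, and was higher in members (edgeR log2 difference 0.48). Igfbp3 was lower in members (-1.66), so the sum does not speak for each gene of the list.

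The first question was how member cells differ from negative cells of the same hearts. Cxcl14, Gfra1, Nmb, Gsta3 and Smoc2 were all higher in Hsd11b1-positive cells, by 2.3-fold to 4.5-fold, in 9 of 9 hearts and pools. H6pd, 11 of 17 basement membrane genes and 13 of 21 glutathione and xenobiotic genes rose as well. Of 21 glucocorticoid-induced genes, 8 rose, 4 fell and 9 did not pass. Of the activation genes 15 of 19 fell, led by Comp, Thbs4 and Postn, as did 14 of 15 Sca1-high progenitor genes. With edgeR's quasi-likelihood test on UMIs summed per heart or pool and class, with the heart or pool as a block, 1011 of 10204 genes were higher in members (9.91%) and 1077 lower (10.6%) at a Benjamini-Hochberg adjusted p under 0.05. The 9 genes of the rule were left out of these counts, and the median log2 difference over all genes was 0.0029. The hearts are separate animals, but each tdTomato pool mixes 3 and enters as 1.

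Cxcl14 stood at 207 CPM in the members of the undamaged tdTomato pool and 563 CPM in those of the ligated pool. In the citrine hearts it was 1293, 1365 and 985 CPM, and in the PDGFRa hearts 829, 827, 1240 and 628 CPM. Negative cells of the same units ran from 63.5 CPM in the undamaged tdTomato pool over a median of 178 CPM to 319 CPM in PDGFRa heart 1. The undamaged tdTomato pool was the lowest in both classes, so the ranges overlapped although each pair differed the same way. The log2 difference was 2.18 (SE 0.19, edgeR adjusted p = 4.89e-08).

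Gfra1 kept to a narrow range in members. It was 104 CPM in members of the undamaged tdTomato pool and 125 CPM in those of the ligated pool. The 3 citrine hearts stood at 115, 110 and 105 CPM and the 4 PDGFRa hearts at 122, 126, 152 and 122 CPM. Negative cells ranged from 12.2 CPM in citrine heart 1 to 62.8 CPM in the ligated pool, with a median of 32.7 CPM, and the classes did not overlap (log2 difference 1.84, SE 0.14, edgeR adjusted p = 1.09e-08).

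Nmb showed a difference by library kind. It was 243 and 291 CPM in members of the undamaged and ligated tdTomato pools, 132, 75.5 and 76.5 CPM in the citrine hearts and 32.0, 49.0, 48.5 and 91.9 CPM in the PDGFRa hearts. Negative cells ran from 10.5 to 85.9 CPM with a median of 19.5 CPM, and were also highest in the tdTomato pools. The ranges overlapped across library kinds but not within a unit (log2 difference 2.02, SE 0.10, edgeR adjusted p = 2.27e-11). Levels of many genes differed between the tdTomato libraries and the others in both classes, so no difference in level is read between these library kinds.

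Gsta3, which conjugates glutathione to reactive lipids and xenobiotics, was 253 CPM (lowest), 333 CPM (median) and 527 CPM (highest) over the 9 member sums. In negative cells it was 53.4, 123 and 244 CPM. Smoc2, which binds calcium and the basement membrane, was the most abundant of the 5 at 1123, 1438 and 2396 CPM in members against 392, 591 and 1091 CPM in negative cells. Neither gene's ranges overlapped. The log2 differences were 1.61 for Gsta3 (SE 0.11) and 1.18 for Smoc2 (SE 0.07), with edgeR adjusted p-values of 2.05e-09 and 2.08e-10.

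**Figure D2:**
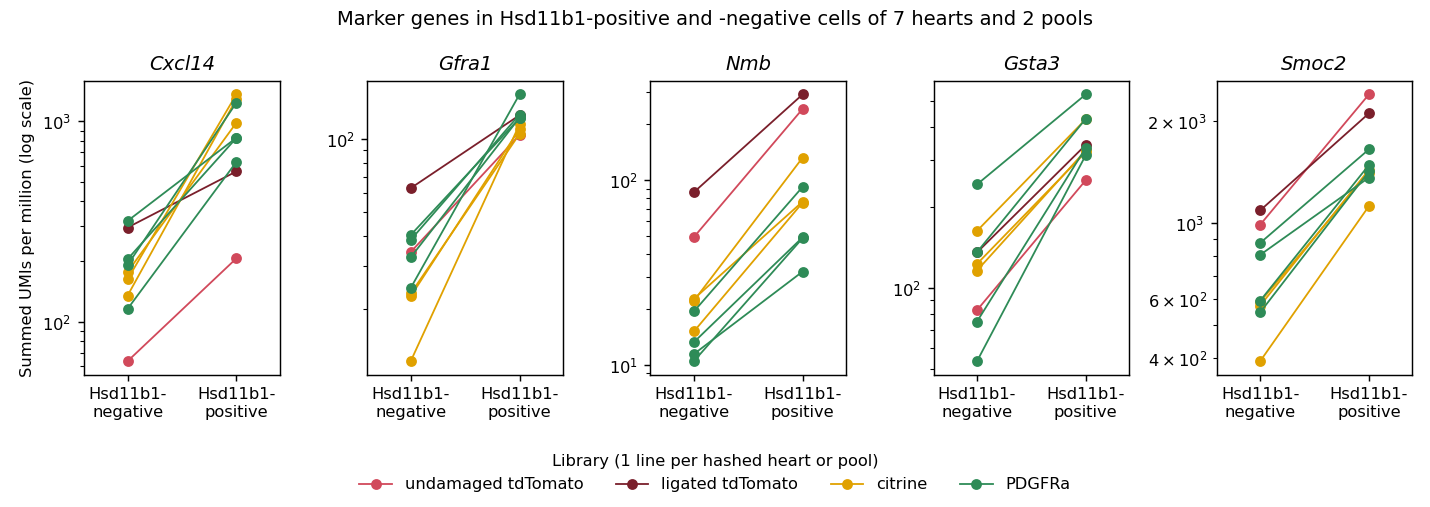
Each panel gives a marker's summed CPM (log scale) in Hsd11b1-negative and Hsd11b1-positive cells, with 1 line for each of the 7 hashed hearts and 2 tdTomato pools, coloured by library. All 9 lines rise in each of the 5 panels; Cxcl14 is lowest in the undamaged tdTomato pool and Nmb highest in the 2 tdTomato pools.

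The markers also tracked the Hsd11b1 rate within the members, given here as a description because the bins were cut on Hsd11b1. Gfra1 in the PDGFRa library rose from 37.2 CPM in negative cells to 63.9 CPM in cells above 0 that were not members. Within the members it then went from 104 CPM at a rate under 6 per 10,000 to 142 CPM at 6 to 12 and 183 CPM at 12 or more. Gsta3 in the same library went from 112 CPM through 209, 331 and 423 CPM to 513 CPM. Cxcl14 in the citrine library went from 151 CPM through 436, 867 and 1158 CPM to 1500 CPM. All 5 markers were highest in the top bin in all 4 libraries, and cells just outside the rule lay between negative cells and members except for Nmb in the ligated tdTomato library, where they were at 187 CPM and the lowest member bin at 186 CPM. Postn ran the other way, from 236, 552, 469 and 1379 CPM in negative cells to 1.54, 19.6, 12.6 and 62.3 CPM in the top bin. Pdgfra and Tcf21, genes of fibroblasts in general, stayed between 191 and 195 CPM and between 425 and 457 CPM over the 3 member bins of the PDGFRa library. Outside the members both were lower there. Pdgfra was 139 CPM in negative cells and 177 CPM in cells above 0 that were not members, and Tcf21 was 332 and 410 CPM. Over all units Pdgfra was called higher in members (log2 difference 0.29), a call lost with libraries as blocks and in cells without a Postn UMI.

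**Figure D3:**
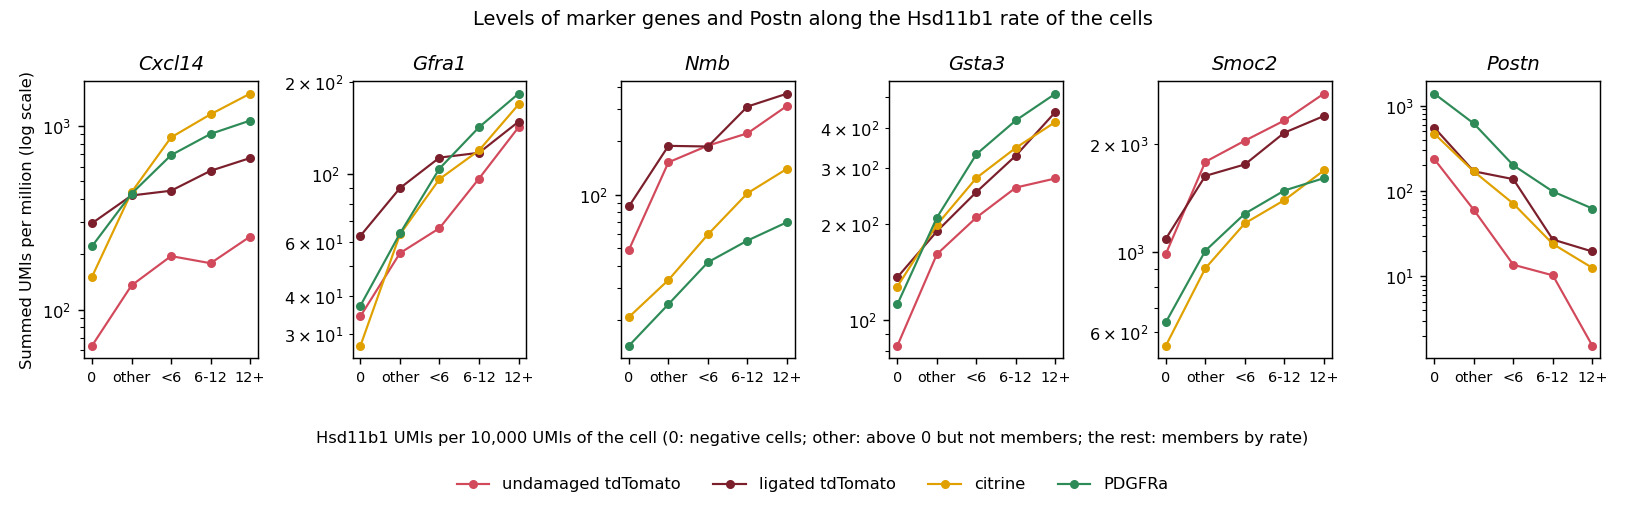
Panels give summed CPM (log scale) of the 5 markers and Postn against the Hsd11b1 rate of the cells, from negative cells through cells that are not members to 3 member bins, with 1 line per library. Each marker peaks in the highest bin in all 4 libraries, and Postn is lowest there.

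The 5 markers were often found in the same cell. Among cells between 1 and 2 times the median depth of their library, at least 3 of the 5 were detected in 59.9% of 304 members and 9.28% of 377 negative cells of the undamaged tdTomato library, at median depths of 4202 and 4317 UMIs. The same shares were 68.1% and 28.4% in the ligated tdTomato library, 78.2% and 24.2% in the citrine library and 71.9% and 23.1% in the PDGFRa library. In the PDGFRa library the negative cells of this window were the deeper class, at 10178 against 8981 UMIs.

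Cxcl14 RNA was spread unevenly over the members. No Cxcl14 UMI was seen in 346 of 510, 421 of 737, 1634 of 2866 and 1792 of 3065 members in the order of the libraries. Members with at least 5 Cxcl14 UMIs were 4.90%, 18.05%, 30.8% and 27.7%, and they held 41.6%, 78.5%, 97.4% and 95.3% of the members' Cxcl14 UMIs. In the PDGFRa library these high cells and the cells without Cxcl14 had Hsd11b1 at 855 and 791 CPM, Gfra1 at 144 and 127 CPM, Gsta3 at 390 and 402 CPM and Smoc2 at 1395 and 1416 CPM. Nmb in the ligated tdTomato library was 464 CPM in high cells and 218 CPM in cells without Cxcl14. The other markers were therefore present in both kinds of member.

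Hsd11b1's own machinery was examined next. Of 9 tested genes of steroid activation and the glucocorticoid receptor other than Hsd11b1, 3 were higher in members and none lower, with a median log2 difference of 0.14. H6pd was 33.7, 50.7 and 63.8 CPM (lowest, median, highest) in members and 21.8, 26.2 and 47.8 CPM in negative cells. It was higher in 9 of 9 units although the ranges overlapped (log2 difference 0.78, SE 0.11, edgeR adjusted p = 2.32e-05). Por, the electron donor of microsomal P450 enzymes, rose by 0.62 (SE 0.08) and Hsp90aa1, a chaperone of the receptor, by 0.36 (SE 0.05). Nr3c1 itself, at a median of 183 CPM in members and 152 CPM in negative cells, did not pass (0.14, SE 0.06, edgeR adjusted p = 0.111), but did with the hashed hearts alone (0.20). The mineralocorticoid receptor Nr3c2 was near 5.10 CPM in members and 5.06 CPM in negative cells and did not pass either.

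Of 21 tested glucocorticoid-induced genes, 8 were higher and 4 lower in members, with a median log2 difference of 0.06. Those higher were Sult1a1 (a sulfotransferase, log2 difference 1.05), the transcription factors Zbtb16 (0.86), Klf15 (0.83) and Klf9 (0.46), and Pdk4 (a brake on glucose oxidation, 0.66). Glul (glutamine synthetase, 0.61), Tsc22d3 (0.40) and the phosphatase Dusp1 (0.23) completed them. Those lower were the cell cycle inhibitor Cdkn1a (-1.0), Arid5b (-0.58), the NF-kappaB inhibitor Nfkbia (-0.52) and the metallothionein Mt2 (-0.41). Fkbp5, a common readout of the receptor, had a median of 40.7 CPM in members and 34.9 CPM in negative cells and did not pass (0.19, SE 0.09, edgeR adjusted p = 0.163), but did when PDGFRa heart 1 was left out (0.26). Neither did Per1 (-0.13) or Sgk1 (-0.09). Pdk4 lost its call with DESeq2, with libraries as blocks, with scaled hashtags and when PDGFRa heart 1 was left out (log2 difference 0.51), and Mt2 lost its call in the depth window of 1 to 2 times the median. In cells without a Postn UMI, Pdk4, Tsc22d3, Dusp1 and Arid5b lost theirs.

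Genes of GDNF and neuropeptide signalling were called throughout, 6 of 8 higher and 2 lower, with a median log2 difference of 1.22 that includes the markers Gfra1 and Nmb. Ntf3, the neurotrophin-3 gene, was 17.1, 22.6 and 37.7 CPM in members and 1.09, 8.03 and 15.5 CPM in negative cells, without overlap (log2 difference 1.63, SE 0.20, edgeR adjusted p = 7.15e-06). Adm, which encodes the vasodilator peptide adrenomedullin, was 86.2, 142 and 335 CPM against 27.4, 46.4 and 125 CPM (1.60, SE 0.13). Ret, the receptor kinase that signals with Gfra1, was higher by 0.83 (SE 0.12) at a median of 31.3 CPM in members, and its call was lost in cells without a Postn UMI. Ncam1, which can also bind GDNF through Gfra1, was lower (-2.71), as was Bdnf (-2.21).

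Of 21 glutathione and xenobiotic genes, 13 were higher and 2 lower, with a median log2 difference of 0.51. After Gsta3 the largest were Adh1 (an alcohol dehydrogenase, 1.26) and Aldh1a1 (a retinaldehyde dehydrogenase, 0.97). Aldh1a1 was 256, 340 and 395 CPM in members and 130, 160 and 229 CPM in negative cells and did not overlap. Gstm5 (-0.60) and Gpx1 (-0.27) were the genes of the list that fell, and Gpx1 lost its call in the depth window. Glutathione transferases of the mu family resemble each other closely, so how reads were divided among them is uncertain. Adh1 lost its call with libraries as blocks and in cells without a Postn UMI.

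The largest rises beyond the markers were in genes of varied function. Ifitm1, an interferon-inducible membrane protein, was 15.6, 38.1 and 124 CPM in members and 1.75, 5.72 and 46.7 CPM in negative cells (log2 difference 2.30, SE 0.16, edgeR adjusted p = 4.21e-09). Of 13 interferon response genes, by contrast, 2 were higher and 1 lower. Adap2 (an Arf GTPase activator, 1.86), Ggt5 (which cleaves glutathione conjugates, 1.59), Spon1 (a matrix protein, 1.45) and Mme (the peptidase neprilysin, 1.43) followed. G0s2, an inhibitor of triglyceride breakdown, was 1031, 1305 and 1619 CPM in members against 180, 461 and 814 CPM in negative cells and did not overlap (1.55, SE 0.13). The ranges of Spon1 and Mme did not overlap either.

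Lipid genes other than G0s2 included Lpl, lipoprotein lipase, at 721, 1373 and 1952 CPM in members and 289, 653 and 871 CPM in negative cells (log2 difference 1.09, SE 0.07). Of 16 tested genes of the lipid list, 6 were higher and 2 lower, with a median of 0.16. Fabp4, the fatty acid carrier of endothelial cells and adipocytes, was the lowest (-1.77), at a median of 8.26 CPM in members and 29.7 CPM in negative cells. The endothelial list also summed to more in negative cells, 42.0 to 351 CPM, and Fabp4 is itself on that list. In the depth window it lost its call (-0.71).

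Of 18 chemokine and cytokine genes, 5 were higher and 1 lower, with a median log2 difference of -0.02. After Cxcl14 came the eotaxin gene Ccl11, at 43.1, 130 and 370 CPM in members and 11.4, 51.3 and 157 CPM in negative cells (1.43, SE 0.26, edgeR adjusted p = 0.000377), and Tslp (0.99). Cxcl2, which attracts neutrophils, was lower (-2.28, SE 0.33), at a median of 10.4 CPM in members and 22.7 CPM in negative cells and up to 1477 CPM in the negative cells of PDGFRa heart 1. Of 9 complement genes, 4 were higher, led by C1s1 (0.73) and C1ra (0.57), and 2 lower, led by the chaperone Clu (-4.99). Clu was 0 to 2.31 CPM in members and 5.37 to 92.0 CPM in negative cells.

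**Figure D4:**
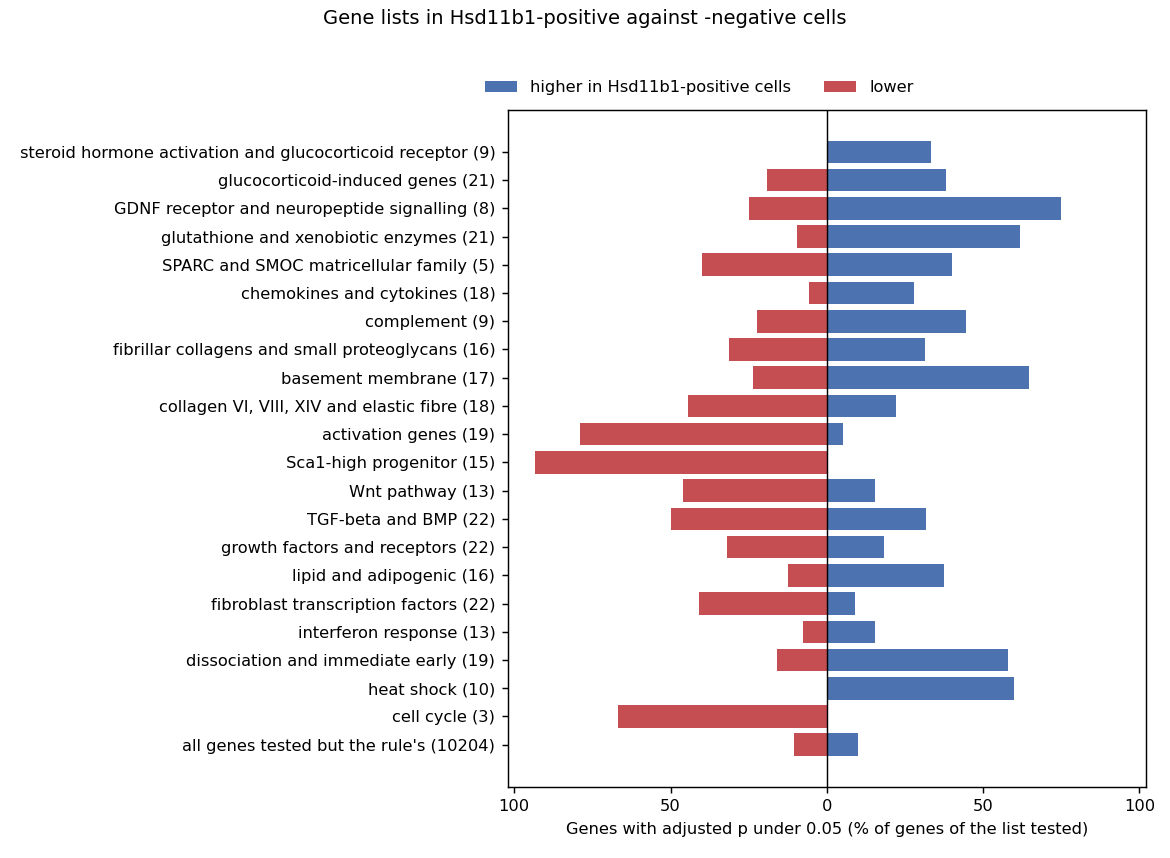
Bars give the percentage of each list's tested genes (number in brackets) that were higher (blue, to the right) or lower (red, to the left) in Hsd11b1-positive than in negative cells at an edgeR adjusted p under 0.05, with all genes tested as the lowest bar. Basement membrane, glutathione and GDNF genes lie mostly to the right, and activation and Sca1-high genes almost wholly to the left.

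Matrix genes split by kind. Of 17 basement membrane genes, 11 were higher and 4 lower, with a median log2 difference of 0.45. Lamb1, a laminin chain, was 231, 475 and 572 CPM in members and 149, 204 and 294 CPM in negative cells (1.10, SE 0.07, edgeR adjusted p = 9.32e-10). It was followed by Lama4 (0.64) and Lama2 (0.63), and Hspg2, the perlecan gene, rose by 0.57 without overlap. Col4a6 (-0.61) and Lamb2 (-0.39) were the lowest of the list, and Col4a6 lost its call in cells without a Postn UMI. Of 16 fibrillar collagen and small proteoglycan genes, 5 were higher and 5 lower, from Fmod (-1.93) and Aspn (-0.84) to Podn (0.72) and Col5a3 (1.01), with a median of -0.10.

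Of 18 genes of collagens VI, VIII and XIV and of elastic fibres, 4 were higher and 8 lower, with a median of -0.12. Col6a6 was 71.8, 83.1 and 94.7 CPM in members against 23.2, 33.2 and 53.5 CPM (1.21, SE 0.11). Col14a1 was 45.2, 74.5 and 107 CPM against 149, 208 and 577 CPM (-1.85, SE 0.14), and the microfibril gene Mfap4 followed (-1.65). Neither Col6a6 nor Col14a1 overlapped. In the family of Smoc2, Sparcl1 was higher (0.78) and Fstl1 lower (-0.75), and 2 of 5 genes were called in each direction. The lower call of Sparc (-0.39) was lost with DESeq2 and in 6 of the 9 fits that left out a heart or pool.

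Activation genes were the lowest list, with 15 of 19 lower, 1 higher and a median log2 difference of -2.08. Postn was 8.26 and 57.3 CPM in members of the undamaged and ligated tdTomato pools, 39.6, 21.4 and 55.7 CPM in the citrine hearts and 213, 223, 61.5 and 75.9 CPM in the PDGFRa hearts. In negative cells it ran from 236 to 1902 CPM with a median of 601 CPM. Members of PDGFRa hearts 1 and 2 had the most, and still lay under every negative sum (-3.41, SE 0.14, edgeR adjusted p = 3.47e-12). Comp, a cartilage matrix protein, was 0.659, 1.55 and 10.4 CPM in members and 19.1, 103 and 189 CPM in negative cells (-4.89, SE 0.21). Thbs4, Ddah1 and Tnc were lower by 3.42, 3.27 and 3.24 on the log2 scale. Fap, a surface protease of activated fibroblasts, was the exception, at 49.1, 63.5 and 84.0 CPM in members and 15.6, 23.7 and 44.2 CPM in negative cells (1.11, SE 0.11).

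Among cells without any Postn UMI, a comparison added after the data were seen, 587 genes were higher and 689 lower. Of the 1011 and 1077 genes above, 50.7% and 52.9% kept their call there. The 5 markers kept theirs, with log2 differences of 1.80 for Cxcl14, 1.53 for Gfra1, 1.74 for Nmb, 1.11 for Gsta3 and 0.88 for Smoc2. Comp and Cilp also stayed lower, and the fall in Ltbp2, a microfibril protein, shrank from -2.88 to -1.11.

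Other genes that fell most were Cytl1 (a cytokine-like secreted protein, -4.98), Dkk3 (a Dickkopf family member, -3.34), Prg4 (lubricin, -2.97), Cilp (-2.87), Cst6 (a cystatin, -2.66) and Has1 (a hyaluronan synthase, -2.52), followed by Tmem100 (-2.36). Cytl1 was 0 to 20.3 CPM in members and 4.57 to 424 CPM in negative cells. Of 15 Sca1-high progenitor genes tested, 14 were lower and none higher, with a median of -0.68. Uchl1 (-2.84) and the semaphorin Sema3c (-2.61) led them, and Cd34 (-0.19) did not pass. The rule left out cells with high Pi16, the defining gene of that list, from both classes.

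Signalling and transcription factor lists held calls in both directions. Of 22 TGF-beta and BMP genes, 7 were higher and 11 lower, with a median of -0.31. Bmp4 (1.04), Bmp2 (0.96) and the latent TGF-beta binding protein Ltbp1 (0.92) were the highest, and Smad6 (-1.73), which BMP signalling induces, the lowest. Of 22 growth factor genes, 4 were higher and 7 lower, from Angptl7 (-2.53) and Fgf18 (-2.18) to Angpt1 (0.89) and Igf2 (1.11). Of 13 genes of the Wnt list, 2 were higher, Tcf4 (0.49) and Frzb (0.26), and 6 lower. The symbol Tcf4 stands for a basic helix-loop-helix factor and not for the Wnt effector Tcf7l2, so its rise is not read as Wnt signalling. Frzb lost its call with libraries as blocks, in the depth window and when citrine heart 3 was left out (0.19).

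Of 22 fibroblast transcription factors, 2 were higher, Egr1 (0.44) and Hic1 (0.24), and 9 lower, led by Meox1 (-1.21). Egr1 lost its call with libraries as blocks (0.25). Hic1, the gene behind CreERT2 and Citrine in the Hic1 libraries, lost its call when citrine heart 1 was left out (0.21). It also lost it in the depth window and in cells without a Postn UMI. Of 3 tested cell cycle genes, 2 were lower, led by Stmn1 (-2.01). Genes that respond to cell dissociation moved with the class as well. Of 19 immediate early genes, 11 were higher in members and 3 lower, with a median of 0.26, and of 10 heat shock genes 6 were higher, with a median of 0.30. With libraries as blocks, Fos, Fosb, Junb, Jund, Ier2, Zfp36, Btg2 and Socs3 lost their calls, as did the heat shock gene Hspa8, while Jun kept its own. Ier2 and Btg2 also lost theirs in the depth window, and Ier2 and Socs3 in cells without a Postn UMI. Jun was higher by 0.56, and Hspa1a and Hspa1b, near-identical copies whose reads may be shared, by 0.81 and 0.80. The part of dissociation in the other differences was not tested.

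The second comparison set members of the ligated tdTomato library against members of the undamaged one. Hsd11b1-positive cells 7 days after ligation had more Postn, more stress and immediate early RNA and 2.72-fold more Cxcl14, while Adm, Bmp4, Id1 and Sgk1 were lower. Gsta3, Gfra1 and Nmb were higher by 1.35-fold or less, and Smoc2 was slightly lower. Many of these shifts were not particular to members. In negative cells Postn, Cxcl14, Adm, Bmp4, Id1 and Sgk1 moved in the same direction, with ratios of 2.34, 4.65, 0.537, 0.455, 0.144 and 0.367. Each side was 1 library of 3 pooled hearts, so the difference has no replicate check, no p-value is given, and ligation and library cannot be told apart. Genes entered when both sums together held 20 UMIs or more. Of 9843 such genes, 255 were over 2-fold higher after ligation (2.59%) and 337 over 2-fold lower (3.42%), with a median log2 ratio of -0.08. In negative cells the counts were 373 (3.51%) and 473 (4.46%) of 10616 genes.

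Postn was 8.26 CPM in undamaged and 57.3 CPM in ligated members, a ratio of 6.94 (95% counting interval 4.15 to 12.4). These were 16 UMIs in 15 of 510 undamaged members and 174 UMIs in 77 of 737 ligated members, with up to 28 in 1 cell. Most members of both libraries thus had no Postn UMI. Postn went from 236 to 552 CPM in negative cells, a ratio of 2.34 (2.14 to 2.55). The counting intervals take UMIs as independent and do not cover such clustering in cells. The ratio in members was 2.97 times that in negative cells (1.77 to 4.99), yet ligated members still had less Postn than undamaged negative cells. The Hsd11b1 minimum and the Cthrc1 limit shape which cells count as members in each library. Of 15 measured activation genes, 2 were over 2-fold higher in members and 1 lower, against 7 and 1 of 19 in negative cells.

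Cxcl14 went from 207 to 563 CPM in members (ratio 2.72, interval 2.44 to 3.04) and from 63.5 to 295 CPM in negative cells (4.65, 3.97 to 5.46). The ratio in members was thus smaller than that in negative cells, and the quotient of both had an interval of 0.484 to 0.707. Gsta3 had a ratio of 1.35 (1.22 to 1.51), Gfra1 of 1.21 (1.01 to 1.44) and Nmb of 1.198 (1.07 to 1.34). Smoc2 had a ratio of 0.879 (0.847 to 0.914) in members and 1.10 (1.05 to 1.16) in negative cells. For all 5 the gap between members and negative cells was smaller in the ligated library. Hsd11b1, which the rule used, was 1137 CPM in undamaged and 1061 CPM in ligated members.

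**Figure D5:**
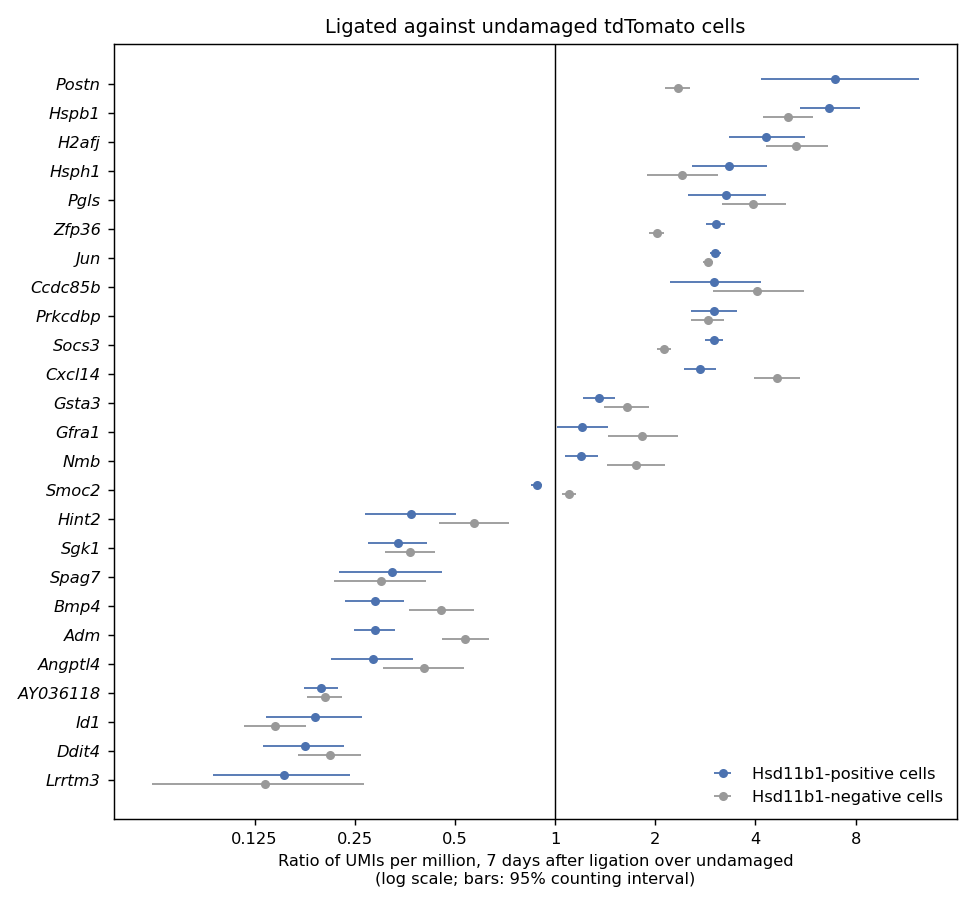
Points give the ratio of CPM 7 days after ligation over undamaged (x axis, log scale) for the named genes and 5 markers in Hsd11b1-positive (blue) and negative cells (grey); bars are 95% counting intervals. For 13 of the 25 genes with both ratios the quotient of the ratios had an interval without 1, Postn, Cxcl14 and Adm among them, and Smoc2 lies on opposite sides of 1 in the classes.

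Among genes with at least 50 CPM in 1 of both libraries, Hspb1 followed Postn. The small heat shock protein gene Hspb1 went from 53.2 to 354 CPM in members (6.66, interval 5.44 to 8.23) and had a ratio of 5.0 in negative cells. H2afj (a histone variant), Hsph1 (a heat shock protein) and Pgls (a pentose phosphate enzyme) had ratios of 4.30, 3.32 and 3.26. In negative cells their ratios were 5.30, 2.41 and 3.94. Zfp36, which destabilises cytokine messages, Jun and Ccdc85b had ratios of 3.04, 3.03 and 3.00. Prkcdbp went from 98.6 to 296 CPM and Socs3, an inhibitor of cytokine signalling, from 639 to 1915 CPM. Zfp36 and Socs3 had ratios of 2.02 and 2.12 in negative cells, lower than in members, while Jun stood at 2.88. Ccdc85b and Prkcdbp stood at 4.05 and 2.87 there. Of 19 immediate early genes, 6 were over 2-fold higher in members and none lower, with a median log2 ratio of 0.58, and of 10 heat shock genes 3 were higher, with a median of 0.62. Among the same 19 genes in negative cells, 3 were higher and 1 lower, with a median of 0.27. Heat shock genes had 3 of 10 higher there, with a median of 0.47.

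Of 17 measured chemokine and cytokine genes, 5 were over 2-fold higher in ligated members and none lower, with a median log2 ratio of 0.88. Besides Cxcl14 and Cxcl2 (log2 ratio 3.16) they included the monocyte attractants Ccl7, from 235 to 659 CPM, and Ccl8, from 3.10 to 18.1 CPM. Cxcl2, at 4.65 CPM, and Ccl8 rested on few UMIs in undamaged members. In negative cells Cxcl2 went from 20.3 to 107 CPM, Ccl7 from 227 to 543 CPM and Ccl8 from 9.27 to 23.4 CPM. The same list had 5 higher and 2 lower of 18 in negative cells. Immediate early genes rose in the same library, and their part in the chemokine values was not tested.

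Among the genes that were lower after ligation, Adm went from 335 to 95.9 CPM in members, a ratio of 0.287 (0.249 to 0.330), against 0.537 (0.456 to 0.633) in negative cells. Bmp4 went from 159 to 45.5 CPM (0.287, 0.233 to 0.352), and its ratio was 0.630 times that in negative cells (0.468 to 0.848). Id1, a target of BMP signalling, went from 85.2 to 16.2 CPM (0.190) and had a ratio of 0.144 in negative cells. The angiopoietin-like gene Angptl4 had a ratio of 0.283 and Lrrtm3, a leucine-rich repeat membrane protein, of 0.153. Their ratios in negative cells were 0.403 and 0.135. The remaining low ratios belonged to AY036118 (0.198), Spag7 (0.322) and Hint2 (0.369), which had 0.203, 0.300 and 0.571 in negative cells.

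Glucocorticoid-induced genes had medians under those of all genes in both classes. Of 20 measured in members, 4 were over 2-fold lower and none higher, with a median log2 ratio of -0.50. They were Ddit4, from 125 to 22.1 CPM, Sgk1, from 146 to 49.1 CPM, Errfi1 and Cebpb. In negative cells 5 of 21 were lower, with a median of -0.61, where the median over all genes was -0.0048. Ddit4 went from 136 to 28.7 CPM and Sgk1 from 143 to 52.6 CPM there. Fkbp5 went from 52.2 to 36.9 CPM, Klf9 from 278 to 190 CPM and Zbtb16 from 60.4 to 42.5 CPM in members, while Nr3c1 was 143 and 133 CPM and H6pd 50.6 and 56.4 CPM. Cebpb had 14 and 9 UMIs. Of 22 growth factor genes, 6 were over 2-fold lower and none higher in members, led by Angptl7 (log2 ratio -2.17). Negative cells had 6 of 24 lower and 2 higher, so the fall was not particular to members. Of 16 fibrillar collagen and small proteoglycan genes only Omd was over 2-fold lower in members (-1.35), against 2 of 16 in negative cells. Over all genes 3.42% were lower in members and 4.46% in negative cells. Of 21 glutathione and xenobiotic genes and 13 Sca1-high genes, none passed 2-fold in members in either direction. With 2.59% of all genes higher and 3.42% lower in members, lists of this size would hold few calls. In negative cells 1 of 22 glutathione and xenobiotic genes was higher and 2 were lower, and none of 15 Sca1-high genes passed.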

How the data were processed

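Per the labels, sorted heart cells were run on the Chromium 3' kit v2 and the authors used Cell Ranger with an mm10 genome that they had modified. Kept barcodes were shared by 8 cells within the tdTomato pair and by 35 within the hashed pair, but by 0 to 2 between the pairs, so whether 1 kit version served all libraries is not settled here. The submitters' processing notes list Seurat 2.1 as well. Cell Ranger 3.0.2 is named by the headers of both hashed libraries, while the tdTomato headers give no version. The deposited values are UMI counts per gene and barcode, for 28001 features common to all files, and they are not normalised. The members, the gene lists and the tests were chosen with earlier results of these data known, so the lists give no independent support.

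Cells were filtered and classed by the rule of the report. No doublet caller was run. Cells with mixed hashtags stayed in library totals, and the citrine hashtag 4 held 0 cells. Library totals were 9885698 (undamaged tdTomato), 18028737 (ligated tdTomato), 97467582 (citrine) and 122716283 UMIs (PDGFRa). UMIs were summed per class over 2 pools and 7 hashed hearts, each with at least 30 cells of each class. Member sums ranged from 1154181 to 6540659 UMIs. edgeR 4.0.16 (quasi-likelihood test, TMM, filterByExpr, heart or pool as block; R 4.3.3) gave log2 differences and Benjamini-Hochberg adjusted p-values over all genes, called under 0.05. Hearts pair the classes, since both come from the same animal or pool. The script was tested on simulated data. CPM is UMIs per 1000000 of the class sum.

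For single libraries, ratios of CPM carry exact 95% Poisson intervals, shares exact Clopper-Pearson intervals, and both cover counting error only. A gene entered when both sums together held 20 UMIs or more, and past 2-fold was the call. A limit of 3 counts applies where a sum holds 0 UMIs.

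Named genes were the markers; the 12 largest log2 differences in each direction among genes with adjusted p under 0.05, at least 50 CPM in the mean of the higher class and the same sign in every unit; the 10 highest and 10 lowest ligation ratios among genes with at least 50 CPM in 1 library and an interval without 1; and the extremes of each list with the genes of both steroid lists. Rule genes, mitochondrial, ribosomal protein, reporter, sex-linked and unnamed genes were left out of the ranked choices. Of 381 genes on 21 lists, 378 are in the files. Of the 12 genes highest in members, 4 are markers. Other list genes named as examples (such as Hspg2, Jun, Ccl7, Ccl8 and Lpl) were picked after their values were seen. Alternatives were DESeq2 1.42.0, DESeq2's size factors, other filters, blocks and depth windows, stricter Hsd11b1 and mitochondrial limits, each heart or pool left out and, added after seeing the data, cells without a Postn UMI, cells with at least 5 fibroblast markers, scaled hashtags and hashed hearts only. Sums, shares and figures were made in Python 3.11.15 with scipy 1.17.1, numpy 2.4.6, matplotlib 3.10.9 and pandas 2.3.3.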

Additional observations from a re-analysis of the deposited data

Results flagged for a closer look

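Of 25 marker and named genes checked over the 9 hearts and pools, 1 had a unit far from the others. Cxcl2 in PDGFRa heart 1 had a log2 ratio of members to negative cells of -4.62, while the nearest unit stood at -2.04 and the median of the 9 was -1.37. The gap was 0.712 of the whole range, above Dixon's 95% critical value of 0.493 for this number of units. Chance flags about 1 in 20 groups checked in this way.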

How the results depend on the processing

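Without the replicate block, which pairs the classes of a heart, 245 genes were higher and 295 lower in members; all of these were among the 1011 and 1077 of the paired fit, and of the 12 genes named for the largest difference in each direction, Ccl11 and Cxcl2 lost their call, as did many list genes. The depth window gave 613 and 618, and cells without a Postn UMI gave 587 and 689. Leaving out each heart or pool gave 828 to 1002 higher and 917 to 1101 lower genes. In cells without a Postn UMI, Sparc (0.0052), C3 (-0.11) and Col8a1 (0.29) changed sign. With at least 3 Hsd11b1 UMIs, the ligation log2 ratio of Igfbp3 turned to 0.0051. Member shares in the order undamaged tdTomato, ligated tdTomato, citrine and PDGFRa were 37.4%, 40.8%, 46.5% and 33.2% in the depth window, where the PDGFRa library became the lowest. They were 21.4%, 22.8%, 38.2% and 40.3% with at least 3 UMIs, 18.3%, 17.3%, 26.4% and 24.4% of all kept cells, and 22.1%, 21.2%, 21.4% and 21.1% after thinning. Genes over 2-fold after ligation numbered 77 higher and 53 lower with at least 100 UMIs, and 509 and 820 with no filter, where the number of genes entered sets the count. The remaining counts stayed within 1.5 times of the reported ones. Causes were not tested. Depth limits the tdTomato libraries most: genes with few UMIs have wide intervals, and the tdTomato contrast has no replicates.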

Other observations

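Hsd11b1 RNA was not limited to the cells the rule admits. Cells set aside for Inmt, a methyltransferase of another fibroblast state, held Hsd11b1 at 333, 620, 378 and 467 CPM in the tdTomato libraries (undamaged, then ligated), the citrine library and the PDGFRa library, and 27.6%, 48.7%, 43.7% and 55.9% of them met the Hsd11b1 minimum. In the same order, their Cxcl14 was 131, 634, 750 and 715 CPM, where members had 207, 563, 1090 and 844 CPM. Their Gfra1 was 45.9, 105, 91.6 and 111 CPM against 104, 125, 118 and 133 CPM in members. Their Nmb was 142, 241, 81.8 and 49.0 CPM against 243, 291, 89.9 and 52.2 CPM. Gsta3 was 86.3, 179, 177 and 231 CPM against 253, 342, 329 and 399 CPM, and Smoc2 970, 1434, 818 and 983 CPM against 2396, 2107, 1363 and 1420 CPM. Of these values only Cxcl14 in the ligated library was above the members' value. Cells set aside for high Pi16 held 131, 149, 123 and 138 CPM of Hsd11b1, and cells set aside for Cthrc1 in the PDGFRa library 24.0 CPM. Cells set aside for at least 2 of Rgs5, Kcnj8, Vtn and Myh11 held 101, 125, 434 and 749 CPM. Of them 3.71%, 7.42%, 32.2% and 74.5% met the Hsd11b1 minimum. The PDGFRa library had only 51 such cells, with Cxcl14 at 611, Gfra1 at 126, Nmb at 40.6, Gsta3 at 293 and Smoc2 at 1332 CPM. These are values of cells chosen by other genes of the rule and carry no test.

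Members with at least 5 Cxcl14 UMIs and members with none differed beyond Cxcl14 in the same direction in all 4 libraries for a few genes, given without a test because the cells were divided by Cxcl14 and the genes picked by size. The acute-phase serpin Serpina3n was 112 against 59.4 CPM, 235 against 120 CPM, 171 against 130 CPM and 244 against 140 CPM. Complement C3 was 923 against 644 CPM in the PDGFRa library and 715 against 330 CPM in the ligated tdTomato library. Aspn, a small proteoglycan, ran the other way, at 377 against 594 CPM and 170 against 319 CPM in those libraries. High cells were also slightly deeper, at 6664.5 against 6324 median UMIs in the PDGFRa library.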
